A study of Mus musculus with 10 samples.

Results

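The lysosome and V-ATPase genes were taken from a table of transcript levels in regenerating mouse liver. They are the 26 loci whose symbol starts with Atp6v or Atp6ap, named for the vacuolar proton pump, and 35 named genes. The 35 are mostly for lysosomal proteases, other hydrolases, membrane proteins and regulators. Among the 26, the symbol Atp6v0c-ps2 marks a pseudogene locus. All 61 were found among the 23535 loci with values. The study compared mice with a floxed Arid1a gene that lacked Cre (genotype Arid1a Fl/Fl, called WT) with mice that carried Alb-cre as well (Arid1a Fl/Fl; Alb-cre, called KO). Alb-cre expresses Cre recombinase from the albumin promoter in hepatocytes, and cells in which it is not active keep the gene. Arid1a is a component of SWI/SNF, a complex that remodels chromatin. All animals were 90 days old, on a mixed C57/B6 and 129 background, and underwent partial hepatectomy. Liver was taken 40 h later from 3 WT and 3 KO samples, while the 4 libraries that the labels place before surgery are not analysed here. The labels do not say that each library came from its own mouse, so p-values measure the spread between these libraries, which may be technical.

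Lysosomes are the acidic compartments in which cells break down proteins, lipids, glycans and worn organelles. The V-ATPase pumps protons into them: its cytosolic V1 sector hydrolyses ATP and its membrane-embedded V0 sector carries the protons, and most hydrolases work only at the low pH that results. Transcription factors of the TFEB and TFE3 family drive many lysosomal genes, are held inactive by the kinase mTORC1 when nutrients are plentiful, and bind DNA elements built around the letters CACGTG.

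Levels are given in FPKM, the fragments counted per kilobase of a transcript and scaled by the number mapped in that library, and can be compared between genes because they are divided by length. They summed to between 409150 and 495217 per library, and depth, estimated from the steps of the lowest values and taken relative to WT replicate 1, was lowest in KO replicate 3 (0.844) and highest in WT replicate 3 (1.22). Absolute depth is unknown. Arid1a, the targeted gene, was 8.68, 8.45 and 8.49 FPKM in WT against 4.41, 5.57 and 6.15 in KO, with no overlap (limma adjusted p = 0.207). The table has 1 value per locus, with none for the deleted part alone. KO replicate 2 stood apart from the other KO libraries in 10 markers of dividing cells, whose summed level was 10.6 FPKM there, 264 and 447 FPKM in KO replicates 1 and 3, and 7.98 to 36.1 FPKM in WT. Summed levels of macrophage, monocyte and neutrophil, endothelial, cholangiocyte and lymphocyte markers overlapped between the groups, as did those of stellate cells and hepatocytes. Of 9 stellate markers, Colec11 and Ecm1 were lower and Reln higher in every KO library than in every WT library. In the other lists, the macrophage marker Marco and Csf3r of the neutrophil list were likewise higher. The hepatocyte marker Serpina1a, the cholangiocyte marker Sox9 and the lymphocyte markers Nkg7 and Klrb1c were lower. Csf3r, Sox9, Nkg7 and Klrb1c were at most 1.83 FPKM in any library.

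Most lysosomal genes were well expressed in these livers. In WT, 6 members had a mean of at least 100 FPKM: the cathepsins Ctsl, Ctsz and Ctsh, the membrane glycoproteins Lamp1 and Lamp2, and Psap, the precursor of the saposins that help degrade sphingolipids. At the other end, Atp6ap1l, Atp6v1e2 and Atp6v1g3 were listed at 0 in all 6 libraries, and Atp6v0a4, Atp6v1b1, Atp6v1c2, Atp6v1g2 and Galc had means under 1 FPKM over the 6 libraries. These 8 members were not tested, which left 53 tested members, 19 of the V-ATPase and 34 others. The members summed to between 1835 FPKM in KO replicate 3 and 2183 FPKM in KO replicate 2, or 0.404% to 0.481% of all FPKM of a library. The highest library was a median of 1.60 times the lowest over the 53 tested members, against 1.86 times over all tested loci. This ratio was under 2 for 77.4% of the members and 57.8% of all tested loci. The loci were not matched to the members by level, so a part of level in this difference was not tested. KO replicate 2 was the highest library for 37.7% of the members and 32.4% of all tested loci.

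No member passed the test of KO against WT. KO was compared with WT with limma on log2(FPKM + 1), with Benjamini-Hochberg adjustment over all 10956 loci with a mean of at least 1 FPKM, and 0 of 53 members reached an adjusted p of 0.05, against 0.119% of all tested loci (13). At an unadjusted p under 0.05, 4 members were higher in KO (Cd63, Atp6ap2, Mcoln1 and Ctsl) against 11.2% of all loci, and 3 were lower (Hexa, Ctsh and Grn) against 3.99%. Every KO library lay above every WT library for 7 members, where 16.7% of all loci did so, and below for 3 members, where 5.44% did. Both counts are close to the background shares. The median log2 difference, KO minus WT, was 0.05 over the members and 0.15 over all tested loci, and 18 members lay above the median of all loci.

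The scale of the libraries bears on these counts. As deposited, the median log2 difference of all tested loci was 0.15. Rescaling by median-of-ratios (each library divided by its median ratio to the loci's geometric means) took that median to 0.02. The median of the members was then -0.09. After that rescaling 4 members lay above WT in every KO library (8% of all loci) and 7 below (9.67%), and again no member passed the adjusted threshold. Cd63, Ctsl and Atp6v1c1 lay above and Hexa, Ctsh and Grn below under the deposited values, this rescaling and quantile normalization alike. Without KO replicate 2, 242 loci (2.21%) passed the threshold, none of them a member, and 8 members lay above (27.8% of all loci) and 8 below (10.7%).

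**Figure D1:**
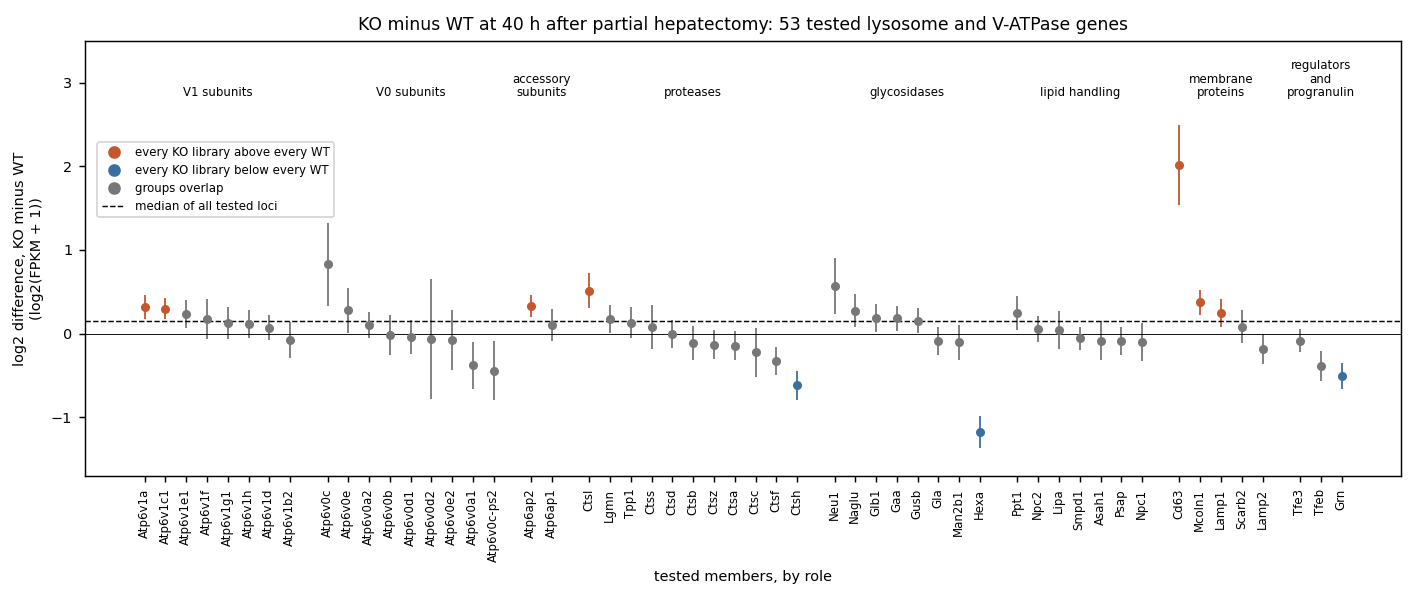
Log2 difference, KO minus WT, on the log2(FPKM + 1) scale for each of the 53 tested members, ordered by role. Points are limma estimates from 3 WT and 3 KO libraries, bars are 1 SE, the dashed line is the median of all tested loci (0.15) and colours mark members whose groups do not overlap. Cd63 (2.01) and Hexa (-1.18) lie farthest from the rest, and no member passed an adjusted p of 0.05.

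Promoter letters were read for the members, since the elements bound by the TFEB family are defined by sequence. Promoters at RefSeq (GRCm38.p6) starts were at hand for 49 of the 61 members. The others, Ctsh and Atp6v1c1 among them, are in neither promoter group below. CACGTG, which reads the same on both strands, occurred in the 250 bases before an annotated start in 13 of the 49 (26.5%), against 6.86% of all 27025 genes with a promoter. The longer form TCACGTGA, which contains it, occurred in 5 (10.2%), against 0.907% of genes. The 13 members were Atp6v0b, Atp6v1a, Ctsa, Ctsd, Ctsf, Ctsl, Gaa, Gla, Glb1, Lamp1, Lgmn, Mcoln1 and Naglu. Shown here are the 120 bases before the RefSeq start of Lamp1 and Mcoln1, which hold several copies, and of Cd63 and Hexa, the members with the highest and the lowest log2 difference, which hold none. All are on the plus strand, from chr8:13159041-13159160, chr8:3500399-3500518, chr10:128909225-128909344 and chr9:59539420-59539539, and capitals mark CACGTG. The Cd63 stretch lies inside the deposited locus, which starts upstream of that RefSeq start.
Lamp1: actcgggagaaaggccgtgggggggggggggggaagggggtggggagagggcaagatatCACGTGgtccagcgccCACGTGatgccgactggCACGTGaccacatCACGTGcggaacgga
Mcoln1: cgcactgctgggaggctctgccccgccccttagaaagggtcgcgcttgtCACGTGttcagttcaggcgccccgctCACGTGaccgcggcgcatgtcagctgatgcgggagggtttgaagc
Cd63: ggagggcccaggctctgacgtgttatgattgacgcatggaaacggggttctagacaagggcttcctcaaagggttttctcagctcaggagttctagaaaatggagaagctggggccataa
Hexa: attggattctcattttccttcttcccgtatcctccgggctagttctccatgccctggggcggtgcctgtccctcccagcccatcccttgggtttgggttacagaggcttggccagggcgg
The Lamp1 stretch holds 4 copies, at 61, 45, 28 and 15 bases before the start, and the Mcoln1 stretch holds 2, at 71 and 45 bases. Atp6v0b, Ctsd and Gla, not printed, also held 2 copies each in the 250 bases. Their log2 differences were -0.01, -0.006 and -0.09, with overlap between the groups. The 13 members with CACGTG had a median log2 difference of 0.18, from -0.33 to 0.51, beside 0.15 over all tested loci. As deposited, 4 of them (Atp6v1a, Ctsl, Lamp1 and Mcoln1) were above WT in every KO library and none below. Over all tested loci, 16.7% were above and 5.44% below. Of the 4 members, Ctsl alone stayed above after median-of-ratios rescaling, beside 8% of all loci. Among 29 tested members whose promoters lacked it, the median was 0.05, from -1.18 to 2.01, with 2 above and 2 below. After median-of-ratios rescaling the medians of the 13 and the 29 were 0.04 and -0.09, beside 0.02 over all loci. No test was made between these groups. A letter match is a description of these windows and does not show binding.

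Among the V1 subunits, the catalytic subunit A and the stalk subunit C were higher in every KO library. Atp6v1a, the subunit with the ATP-hydrolysing sites (chromosome 16, 44085404 to 44139019, mm10), was 11.3, 10.3 and 10.5 FPKM in WT against 14.4, 14.6 and 11.9 in KO. Atp6v1c1, a subunit that links the V1 and V0 sectors, was 11.4, 10.6 and 12 FPKM in WT against 14.7, 14.1 and 13.6 in KO. The log2 differences were 0.32 (SE 0.14) and 0.30 (SE 0.13), and neither passed (limma adjusted p = 0.345 and 0.333). For Atp6v1a the gap between the groups was smaller than the range within KO, and the groups overlapped after both rescalings, whereas for Atp6v1c1 they did not. The peripheral stalk subunit Atp6v1e1 was 45.9, 39.4 and 34.6 FPKM in WT against 45.3, 51.1 and 45.1 in KO, with overlap. Atp6v1f, a central rotor subunit and the most abundant of V1, was 50.6, 54.0 and 36.6 FPKM in WT against 42.6, 68.7 and 49.8 in KO. Its log2 difference of 0.18 turned to -0.01 without KO replicate 2, the library with its highest value. The other 4 tested V1 genes, Atp6v1b2, Atp6v1d, Atp6v1g1 and Atp6v1h, had log2 differences from -0.08 to 0.13.

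No V0 locus separated the groups, and 6 of 9 tested V0 loci, the pseudogene locus Atp6v0c-ps2 among them, had a log2 difference below 0. So did 1 of 8 tested V1 genes and 3325 of all 10956 tested loci. After median-of-ratios rescaling the V0 and V1 counts were 7 of 9 and 4 of 8, where the median of all tested loci was itself near 0, at 0.02. The difference between the sectors was not tested. Atp6v0a1, a proton-path subunit, was 16.6, 12.6 and 11.4 FPKM in WT against 7.39, 15.6 and 8.66 in KO. KO replicates 1 and 3 were below every WT library and replicate 2 was not (log2 difference -0.38, SE 0.28, adjusted p = 0.531, and -0.68 without KO replicate 2). Atp6v0b, a proteolipid of the rotating ring, was 33.5, 44.6 and 29.7 FPKM in WT against 27.6, 45.2 and 34.6 in KO. The groups overlapped throughout, and its difference of -0.01 changed sign without WT replicate 2 or KO replicate 1. The remaining ring proteolipid, Atp6v0c, shares its position on chromosome 17 with the locus Atp6v0c-ps2 (24163866 to 24169429 and 24163865 to 24169395), so the split of fragments between them is uncertain.

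Atp6v0c alone was 37.3, 28.8 and 8.82 FPKM in WT against 45.9, 31.0 and 40.9 in KO. Atp6v0c-ps2 was 84.2, 85.3 and 86.4 FPKM in WT against 38.7, 108 and 58.1 in KO. The 2 loci thus differed in opposite directions on average, by 0.83 (SE 0.50, adjusted p = 0.445) and -0.44 (SE 0.35, adjusted p = 0.554). Their sum was 121, 114 and 95.2 FPKM in WT against 84.6, 139 and 98.9 in KO, a log2 difference of -0.06 (SE 0.23, adjusted p = 0.914), a combination made after the values were seen. The share given to Atp6v0c ran from 9.26% in WT replicate 3 to 54.3% in KO replicate 1, which moved the single-gene values more than the sum. No call rests on either locus. Atp6v0a2, Atp6v0d1, Atp6v0d2, Atp6v0e and Atp6v0e2 had log2 differences from -0.07 to 0.28. Without KO replicate 2, Atp6v0c lay above WT in both remaining KO libraries, and Atp6v0a1, Atp6v0c-ps2 and Atp6v0d1 lay below.

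Several pump subunits are encoded by paralogous genes, and the share of each in the summed FPKM of its family does not depend on library scaling. For subunit a, the share of Atp6v0a1 was 49.3%, 46.9% and 40.0% in WT against 26.4%, 45.3% and 29.97% in KO. That of Tcirg1, the a3 paralogue known from the osteoclast pump, was 24.5%, 24.4% and 32.5% in WT against 37.9%, 28.1% and 44.4% in KO. In KO replicates 1 and 3 Tcirg1 outranked Atp6v0a1, whereas in WT and in KO replicate 2 Atp6v0a1 led. The exact two-sided permutation p was 0.2 for the Tcirg1 share, and 0.8 after adjustment over the 8 shares compared, in a design whose smallest possible p is 0.1. Atp6v0a2, a Golgi-associated paralogue, held 24.6% to 35.2%, and Atp6v0a4, known from the kidney, at most 1.06%.

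The d subunit varied widely between libraries of the same group. Atp6v0d2, a paralogue known from osteoclasts and macrophages and singled out with its levels already known, was 6.16, 1.67 and 16.4 FPKM in WT against 10.0, 2.43 and 6.64 in KO. Its share of subunit d was lowest in WT replicate 2 (5.57%) and KO replicate 2 (6.39%) and highest in WT replicate 3 (37.6%), so the spread within WT covered all KO values. Macrophage markers did not follow the same order, with summed levels of 174, 211 and 144 FPKM in WT against 254, 193 and 165 in KO, and the part of macrophages in the Atp6v0d2 values was not tested. In the remaining families 1 gene held nearly all of the signal: Atp6v1b2, Atp6v1c1, Atp6v1e1 and Atp6v1g1 each held at least 97.4% in every library, and Atp6v0e at least 89.5%.

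**Figure D2:**
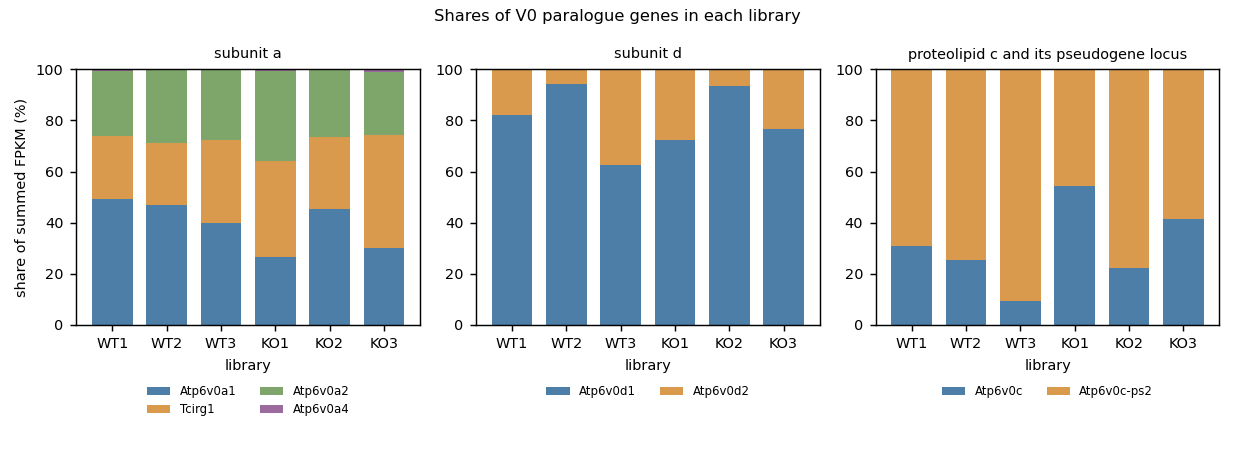
Share of the summed FPKM, in percent, taken by each paralogue of subunit a, of subunit d, and by Atp6v0c and the overlapping locus Atp6v0c-ps2, in each of the 6 libraries (1 stacked bar a library). Tcirg1 is larger than Atp6v0a1 in KO replicates 1 and 3 only, and the Atp6v0d2 share runs from 5.57% to 37.6% within WT.

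Of the 2 accessory subunits with a level above the filter, 1 separated the groups. Atp6ap2, the prorenin receptor, which also takes part in assembling the pump (chromosome X, 12587759 to 12617051), was 11.1, 12.4 and 11.7 FPKM in WT against 15.8, 14.3 and 15 in KO. The log2 difference was 0.33 (SE 0.13, adjusted p = 0.311). The groups still did not overlap after median-of-ratios rescaling, which took the difference to 0.19, but they did after quantile normalization. Atp6ap1, which guides assembly of V0, was 23.5, 29.8 and 27.6 FPKM in WT against 27.5, 35.3 and 24.9 in KO. Its log2 difference of 0.10 became -0.04 after median-of-ratios rescaling, -0.06 after quantile normalization and -0.04 without KO replicate 2.

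The lysosomal proteases did not move as 1 group: Ctsl was higher and Ctsh lower in every KO library, and 9 of 11 lay at or below the median of all loci. Ctsl, an endopeptidase and the most abundant member, was 205, 166 and 220 FPKM in WT against 254, 337 and 254 in KO (means 197 ± 27.8 and 282 ± 47.8, SD, n = 3). The lowest KO value was above the highest WT value by a margin smaller than the range within WT. The log2 difference was 0.51 (SE 0.21, adjusted p = 0.318), and 0.36 after median-of-ratios rescaling.

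Ctsh, an aminopeptidase (chromosome 9, 90054267 to 90076095), was 103, 107 and 106 FPKM in WT against 76.4, 57.3 and 73.3 in KO. The WT libraries lay close together, and the gap to the highest KO library was wider than the range within KO. The log2 difference was -0.62 (SE 0.17, adjusted p = 0.232), and -0.77 after median-of-ratios rescaling. In bulk liver a lower value of this kind cannot be told apart between fewer cells of a type that holds the transcript and less of it per cell.

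Ctsf, a cysteine protease, was 5.80, 6.33 and 5.01 FPKM in WT against 4.01, 3.74 and 5.39 in KO, with overlap through KO replicate 3. That overlap was gone after quantile normalization but not after median-of-ratios rescaling. Ctsz, a carboxypeptidase, was 119, 116 and 106 FPKM in WT against 113, 111 and 89.3 in KO, a log2 difference of -0.13. The Ctsz groups overlapped as deposited and after quantile normalization, but not after median-of-ratios rescaling. The other 7 proteases, Ctsa, Ctsb, Ctsc, Ctsd, Ctss, Lgmn and Tpp1, had log2 differences from -0.22 to 0.18, each with overlap. Ctsd, a main aspartic protease of the lysosome, had group means of 76.5 ± 1.94 and 76.6 ± 10.6 FPKM (SD, n = 3 each). Loci of other genes overlap Ctsa, Ctsb and Ctsz (Neurl2 and Pltp, Fdft1, and Nelfcd), and how fragments were divided there is uncertain.

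Hexa had the lowest log2 difference of all members. It encodes the alpha subunit of beta-hexosaminidase, the enzyme that with its activator removes the terminal sugar of GM2 ganglioside, and lies on chromosome 9 (59539667 to 59565105). Hexa was 12.7, 12.3 and 8.04 FPKM in WT against 4.67, 3.83 and 4.22 in KO. The lowest WT library was above the highest KO library by more than the range within KO and less than the range within WT, and the means were 11.0 ± 2.59 and 4.24 ± 0.420 FPKM (SD, n = 3 each). The log2 difference was -1.18 (SE 0.20), with an unadjusted p of 0.000592 and an adjusted p of 0.128. Over the alternative settings the adjusted p ran from 0.0659, without KO replicate 2, to 0.445, without WT replicate 1, and the difference from -1.37 to -1.07. It is the member with the smallest p, at rank 49 among all loci tested.

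The other glycosidases showed no separation of the groups. Neu1, the sialidase that removes sialic acid, was 8.81, 7.23 and 6.66 FPKM in WT against 8.71, 20.7 and 8.55 in KO. The mean difference of 0.57 (SE 0.33, adjusted p = 0.435) rested on KO replicate 2 and was 0.18 without it. Naglu, an enzyme of heparan sulfate breakdown, was 7.12, 6.56 and 7.58 FPKM in WT against 9.66, 10.7 and 6.49 in KO.

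Gaa, the acid alpha-glucosidase that degrades lysosomal glycogen, was 21.2, 21.9 and 19.2 FPKM in WT against 21.7, 26.2 and 23.4 in KO, so KO replicate 1 fell within the WT range. Man2b1, the acid alpha-mannosidase, was 10.8, 12.9 and 9.75 FPKM in WT against 13.4, 8.24 and 9.63 in KO, and its log2 difference of -0.10 became 0.04 without KO replicate 2. Gla, Glb1 and Gusb, which remove terminal galactose or glucuronic acid, had log2 differences from -0.09 to 0.19. The locus of Glb1 overlaps Tmppe. Galc, the galactosylceramidase, stayed between 0.556 and 1 FPKM in all 6 libraries.

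The 7 genes of lipid handling differed little, with log2 differences from -0.10 to 0.25 and overlap in each. Psap was 133, 135 and 120 FPKM in WT against 120, 138 and 109 in KO. Lipa, the acid lipase that frees cholesterol and fatty acids, was 53.6, 62.2 and 54.1 FPKM in WT against 64.4, 72.4 and 42.6 in KO, and its log2 difference of 0.05 turned negative after both rescalings (-0.10 and -0.09) and without KO replicate 1 or 2 (-0.02 and -0.11). In both genes KO replicate 2 was the highest library and KO replicate 3 the lowest.

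Ppt1, a palmitoyl-protein thioesterase, was 5.91, 7.90 and 10.1 FPKM in WT against 10.7, 9.20 and 8.53 in KO. Npc1, which moves cholesterol out of the lysosome together with Npc2, was 30.6, 21.8 and 30.7 FPKM in WT against 22.2, 33.6 and 22.1 in KO, so the ranges coincided, at a locus that overlaps 3110002H16Rik. Npc2 had means of 10.3 ± 1.44 and 10.7 ± 1.06 FPKM (SD, n = 3 each). Smpd1, the acid sphingomyelinase, had the smallest ratio of highest to lowest library of all tested members, 1.18, at 17.0 to 20.2 FPKM. After median-of-ratios rescaling and quantile normalization every KO library was below every WT library for Smpd1, beside 9.67% and 10.2% of all loci. Asah1, the acid ceramidase, had means of 14.2 ± 3.51 and 13.2 ± 2.73 FPKM.

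Of the tested members, Cd63 had the highest log2 difference and the largest ratio of highest to lowest library, 12.8. It encodes a tetraspanin of late endosomes, lysosomes and exosomes, on chromosome 10 (128908919 to 128912818), and was 7.75, 11.0 and 5.59 FPKM in WT against 30.3, 71.8 and 18.9 in KO. The lowest KO library was above the highest WT library by less than the range within KO, and KO replicate 2 was more than the sum of the other KO libraries. The means were 8.13 ± 2.75 and 40.3 ± 27.8 FPKM (SD, n = 3 each). The log2 difference was 2.01 (SE 0.48, adjusted p = 0.188). Without KO replicate 2 the difference was 1.5 with an adjusted p of 0.0746, and over all settings the adjusted p ran from 0.0527, with the replicate block, to 0.537, without WT replicate 1. The macrophage marker Marco also did not overlap between the groups (9.84, 8.99 and 5.11 FPKM in WT against 16.9, 27.6 and 11.8 in KO), with its highest value in KO replicate 2. It was 1 of 14 macrophage markers, none of them at 0, of which no other separated the groups, and their summed level was 144 to 211 FPKM in WT and 165 to 254 in KO. The part of macrophages in the Cd63 values was not tested.

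Mcoln1, a calcium channel of the lysosomal membrane, was 8.81, 7.59 and 8.89 FPKM in WT against 9.63, 11.9 and 12.2 in KO. The gap between the groups was smaller than the range within either group, the log2 difference was 0.37 (SE 0.15, adjusted p = 0.316), and the groups overlapped after both rescalings. Lamp1, which with Lamp2 makes up much of the protein of the lysosomal membrane, was 104, 114 and 115 FPKM in WT against 144, 116 and 138 in KO. KO replicate 2 was only just above the highest WT library, and the groups overlapped after both rescalings (log2 difference as deposited 0.25, SE 0.17, adjusted p = 0.489). These are the 2 members whose stretches with several copies of CACGTG are printed above. The groups of Atp6v0b, Ctsd and Gla, which also held more than 1 copy, overlapped.

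Lamp2 was 172, 170 and 190 FPKM in WT against 181, 138 and 151 in KO. Its mean was lower in KO while that of Lamp1 was higher, by log2 differences of -0.18 and 0.25. After median-of-ratios rescaling every KO library was below every WT library for Lamp2, as for 9.67% of all loci. The Lamp2 groups overlapped after quantile normalization. Scarb2, the receptor that carries glucocerebrosidase to the lysosome, had means of 41.8 ± 9.44 and 43.9 ± 4.95 FPKM (SD, n = 3 each).

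**Figure D3:**
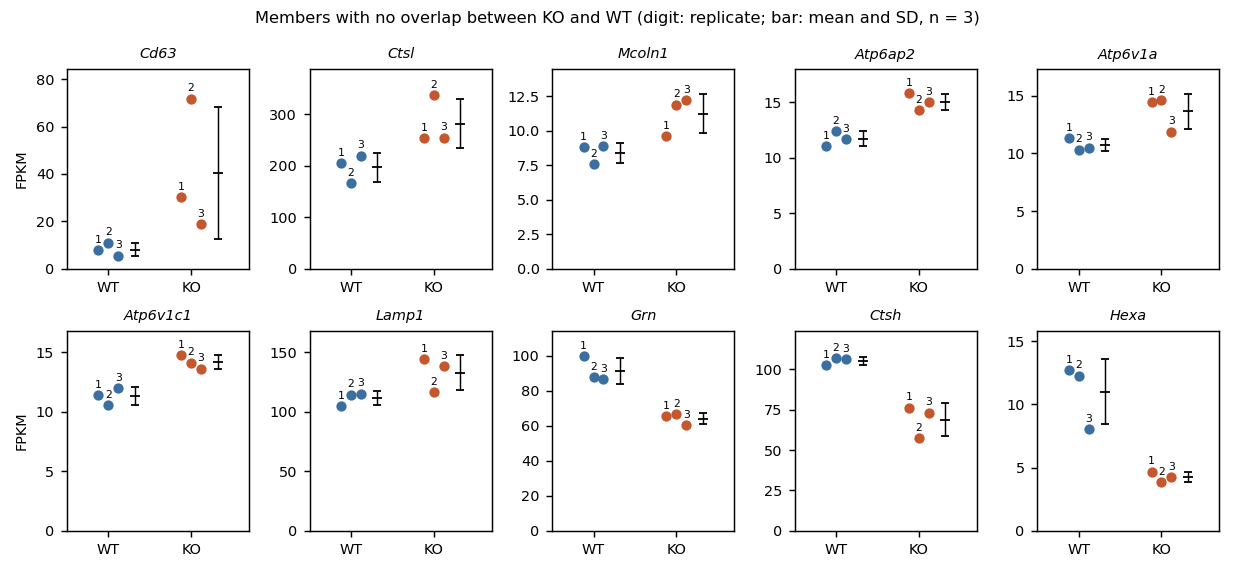
FPKM in each library of the 10 members whose KO and WT libraries do not overlap as deposited, with 1 point a library (the digit is the replicate number) and bars for the mean and SD of 3 libraries. Each axis starts at 0. The gap is wider than the range within either group for Atp6ap2, Atp6v1c1, Ctsh and Grn, the groups of Atp6v1a, Lamp1 and Mcoln1 overlap after median-of-ratios rescaling, and no member passed an adjusted p of 0.05.

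Grn, listed here beside the regulators Tfeb and Tfe3 but not one of them, was lower in every KO library. It encodes progranulin, a secreted and lysosomal glycoprotein that is cut into granulins (chromosome 11, 102430322 to 102436809), and was 99.7, 87.6 and 86.6 FPKM in WT against 65.2, 66.4 and 60.2 in KO. The gap between the groups was wider than the range within either group. The log2 difference was -0.50 (SE 0.15, adjusted p = 0.250), and -0.66 after median-of-ratios rescaling (adjusted p = 0.196). Macrophages are a known source of progranulin, and the ranges of their summed markers, given above, overlapped between the groups. Their part in the Grn values was not tested.

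Of the 2 factors, Tfeb was the less abundant. It was 2.54, 2.63 and 1.96 FPKM in WT against 1.42, 2.06 and 1.296 in KO, with KO replicate 2 just above WT replicate 3. Its log2 difference was -0.39 (SE 0.18, limma adjusted p = 0.359). After median-of-ratios rescaling every KO library was below every WT library, as for 9.67% of all loci, but the groups overlapped after quantile normalization. Tfe3 was 10.5, 11.8 and 9.35 FPKM in WT against 10.1, 9.54 and 9.97 in KO, a log2 difference of -0.08 (SE 0.14, limma adjusted p = 0.786), with overlap. The overlap remained after median-of-ratios rescaling and was gone after quantile normalization, where 10.2% of all loci were below WT in every KO library. These are transcript levels, and the activity of both factors is set largely by where the protein is in the cell.

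The wider pathway held no gene past the threshold either. Of 120 other genes in 5 lists (further enzymes, further membrane proteins, delivery to the lysosome, mTORC1 and TFEB signalling, and autophagy) 110 were tested and none passed the adjusted threshold (limma). At an unadjusted p under 0.05, 8 were higher and 6 lower in KO, beside 11.2% and 3.99% of all loci. The median log2 difference of the 110 was 0.05, beside 0.15 over all tested loci. For 15 genes every KO library was above every WT library and for 8 below, which is 13.6% and 7.27% of those tested, beside 16.7% and 5.44% of all loci.

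Sort1, the sorting receptor sortilin, was 2.56, 3.69 and 4.01 FPKM in WT against 1.38, 1.31 and 1.57 in KO, a log2 difference of -0.86 (SE 0.18, adjusted p = 0.164). The groups did not overlap. Gnptg, the gamma subunit of the enzyme that adds the mannose 6-phosphate tag to hydrolases, had means of 9.72 ± 1.49 and 7.08 ± 0.637 FPKM (SD, n = 3 each, adjusted p = 0.309). Among membrane proteins, the ion channel Tpcn1 had means of 8.45 ± 1.24 and 13.1 ± 2.44 FPKM (adjusted p = 0.275) and the pump subunit Tcirg1 8.03 ± 1.40 and 11.0 ± 1.62 FPKM (adjusted p = 0.331), both with every KO library higher as deposited. After median-of-ratios rescaling the groups of Tcirg1 overlapped.

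In mTORC1 signalling the kinase and its activator differed in opposite directions. Mtor was 11.8, 13.4 and 14.3 FPKM in WT against 9.49, 9.80 and 8.28 in KO, a log2 difference of -0.48 (adjusted p = 0.245). Rheb, the small GTPase that activates it, was 13.6, 14.1 and 15.4 FPKM in WT against 17.9, 17.2 and 21.8 in KO, a log2 difference of 0.37 (adjusted p = 0.316). Neither pair of groups overlapped. Of 20 tested genes in that list, 3 were above WT in every KO library (15%) and 2 below (10%). Over all loci the shares were 16.7% and 5.44%. Of the autophagy genes, Map1lc3a, which encodes a form of the autophagosome protein LC3, was 23.5, 17.7 and 11.4 FPKM in WT against 7.48, 9.92 and 8.83 in KO, a log2 difference of -0.88 (SE 0.26, adjusted p = 0.244). Ulk1, the kinase that starts autophagy, had means of 14.2 ± 3.79 and 9.11 ± 0.905 FPKM (adjusted p = 0.314), with overlap.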

How the data were processed

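The 6 libraries of liver RNA at 40 h, 3 WT and 3 KO by genotype label, were analysed. Per the labels' protocols, Trizol and miRNeasy extraction preceded Illumina or Nugen library preparation, with strandedness not given. Per the submitters' processing notes, TopHat, edgeR, mm9 and mm10 were used, without roles. Values were deposited by the authors as FPKM per locus, per the file headers. Loci matched to RefSeq GRCm38.p6 by symbol and chromosome overlapped the RefSeq gene in 98.7% of 21546 cases, so positions (counted from 1) are given on mm10. FPKM depends on the library total and on how fragments were divided among overlapping models.

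Of 23847 loci, 312 carried LOWDATA and were left out. The listed floor of 0.001 was set to 0. Values were tested as log2(FPKM + 1), which understates changes of low genes, at loci with a mean of at least 1 FPKM, with limma 3.58.1 in R 4.3.3 (trended eBayes, two-sided, genotype only, Benjamini-Hochberg, threshold 0.05), and the fit was tested on simulated data. Shares were compared by exact permutation over 20 assignments, smallest p 0.1. Relative depth came from ratios of values under 0.3 FPKM.

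The members and lists were chosen with earlier results of these data known. Values per library are given, in each role, for the 3 tested members with the smallest p and the 2 with the highest WT mean, for Tfeb and Tfe3, and for up to 2 genes of each pathway list by p, some of these last as means. Some genes that this rule names are not reported here. Alternatives were another pseudocount (0.1), no filter, median-of-ratios and quantile scaling, no trend, a replicate block, and leaving out each library. Summing Atp6v0c with Atp6v0c-ps2 was added after seeing the data.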

Additional observations from a re-analysis of the deposited data

How the results depend on the processing

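No lysosome or V-ATPase gene passed the adjusted threshold under any alternative, and 24 of the 30 named members kept their direction in all of them. Over all loci, 13 passed as reported, 6 without the filter on low values, 47 with the replicate block and 0 to 242 with 1 library left out (0, 2 and 3 without WT replicates 1, 2 and 3, and 11, 242 and 2 without KO replicates 1, 2 and 3). The replicate numbers only name libraries: same-numbered WT and KO deviations from the group means correlated at -0.08, 0.16 and 0.16 over loci, so the block is not read as a pairing. With the block no member passed, and the smallest adjusted p was 0.0527, for Cd63.

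Members above WT in every KO library numbered 4 after median-of-ratios rescaling, 3 after quantile normalization and 8 to 13 with 1 library left out, where 8%, 7.5% and 20.7% to 28.5% of all loci did so. Members below numbered 7, 6 and 3 to 8, beside 9.67%, 10.2% and 7.28% to 10.7% of all loci. The median log2 difference of the members was -0.0859 after median-of-ratios and -0.0930 after quantile scaling, and that of all loci was 0.0193 after median-of-ratios, -0.0039 after quantile normalization and 0.0667 without the filter. Among the 30 named members, reversed differences were those of Atp6v0c when summed with Atp6v0c-ps2 (-0.0597), Atp6ap1 (-0.0444 and -0.0614 after the rescalings) and Lipa (-0.104 and -0.0930). With 1 library left out, the ranges of named members that crossed 0 were -0.0355 to 0.207 for Atp6ap1, -0.106 to 0.269 for Lipa, -0.191 to 0.154 for Atp6v0b, -0.0106 to 0.327 for Atp6v1f and -0.286 to 0.0367 for Man2b1. Over all 53 tested members, 11 changed sign after a rescaling and 17 with 1 library left out. The cause was not tested.

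Differences of paralogue shares, in percentage points, crossed 0 with 1 library left out for Atp6v0a2 (-1.43 to 3.89), Atp6v0a4 (-0.191 to 0.340), Atp6v0d2 (-8.49 to 7.51) and Atp6v0e2 (-3.07 to 1.02). As a mean log2 ratio to Atp6v0d1, the Atp6v0d2 difference was 0.0134. Depth sets a limit for members under 1 FPKM, whose values rest on few fragments.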
